A study of Canis lupus familiaris with 6 samples.

Results

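The genes described here build and serve the cilium: all 64 symbols, of 34981 in the files, that begin with IFT, BBS or CFAP followed by a digit, plus RPGR, RPGRIP1, RP1, CEP290, LCA5 and KIF3A. By role they comprise 5 genes of the photoreceptor cilium, 1 kinesin motor subunit, 11 subunits of the IFT-B complex, 3 subunits of the IFT-A complex, 6 subunits of the BBSome, 1 gene for its assembly (BBS12) and 37 CFAP genes. They were measured by single-cell RNA sequencing in the neuroretina of immunosuppressed dogs with normal retinas, 3 days after fragments of retinal organoids had been injected under the retina. The organoids came from the WA09 line of human embryonic stem cells, with a CRX-tdTomato reporter. In each of 3 experiments (LG5, RC726 and RC724), 1 punch was taken over the graft and 1 where no graft lay (control), each 5 mm across, and both were dissociated with trypsin and a neural tissue kit, which gave 3 libraries per group. Both groups share the immunosuppression, the genotype (normal or wild type) and a retina that received a graft, so no uninjected eye enters the comparison. The sources used here do not tell whether the experiments came from different dogs. The p-values of the change thus rest on how the difference between punches varied across experiments, whatever the source of that variation. Those of the levels rest on how the differences between classes varied across the control libraries.

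Photoreceptors hold a highly modified primary cilium. Its transition zone, the connecting cilium, joins the inner segment to the outer segment, and a microtubule axoneme runs on into the outer segment. All proteins of the outer segment pass this bridge. Intraflagellar transport (IFT) trains carry cargo along the axoneme, the IFT-B complex outward with kinesin and the IFT-A complex back with dynein. The BBSome is a coat-like complex that links membrane proteins to the trains and takes proteins out of the cilium. CFAP proteins (cilia and flagella associated proteins) are mostly known from motile cilia and sperm tails. Variants in several of these genes, among them RPGR, RPGRIP1, BBS4 and IFT122, cause inherited retinal degeneration in dogs.

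The deposited libraries held between 8778 and 23908 barcodes and between 34768162 and 60755006 unique molecular identifiers (UMIs, each a counted molecule). Barcodes were clustered and the clusters named from marker genes, and the 5 classes present in every library are described: rod-like (37484 cells), cone-like (3657), bipolar-like (10373), Müller glia-like (14336) and amacrine-like (2245). UMIs were summed per library and class, and levels are given as CPM, the UMIs scaled to the same total in every sum. Because 3' counts were not divided by length, levels are compared between cells and not between genes. The rod-like sums held between 6864858 and 17609323 UMIs and the cone-like sums between 2679075 and 3593244. The clusters were named from these markers, so the markers of a class are no independent support for its label. In every library 0 of the 11 rod markers stood at 0 in rod-like sums. The same held for the own markers of cone-like, Müller glia-like and amacrine-like sums. In bipolar-like sums at most 1 of the 12 bipolar markers stood at 0. In rod-like sums the rod markers came to 15692, 17136 and 10928 CPM over the graft, against 29099.9, 22489 and 21311 CPM in control, in LG5, RC726 and RC724. They were thus lower over the graft in each experiment. Amacrine markers also appeared in rod-like sums, at 271 to 1214 CPM in control and 328 to 1336 CPM over the graft. Amacrine-like sums held 1649 to 1934 CPM of them in control and 1366 to 1905 CPM over the graft.

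LG5 stood apart from the other experiments. It was counted with Cell Ranger 6.0.2, and RC726 and RC724 with versions 7.0.0 or 7.1.0, so software and experiment cannot be told apart. Rod-like cells had medians of 810 UMIs over the graft and 859 in control in LG5, against at least 1559 in the other 4 libraries. Free RNA, estimated in rod-like cells from Müller glia markers, came to 31.1% over the graft and 33.6% in control in LG5, and lay between 4.04% and 5.69% in RC726 and RC724. That estimate counts every Müller glia marker in rod-like sums as free RNA, also in clusters with mixed markers. Cluster 8, named rod-like with Müller glia second, had 1394 LG5 barcodes over the graft and 1668 in control. The Müller glia markers in rod-like sums came in LG5 to 828 CPM over the graft, against 1441 CPM in control, and to between 96.7 and 133 CPM in the other 4 libraries. Different clusters held many of the LG5 rods: cluster 7 had 4044 barcodes over the graft against 117 in control, while cluster 3 had 743 against 4545. Between 17 and 102 barcodes were shared by any pair of libraries, at most 0.677% of the smaller one.

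In control retina, more of the tested cilium genes were higher than lower in photoreceptors, against the mean of the other classes described. Of the 50 members with enough counts, 33 were higher in rod-like cells than in the mean of bipolar-like, Müller glia-like and amacrine-like cells (edgeR quasi-likelihood test on 15 control sums with the library as a block, adjusted p under 0.05), and 4 were lower. Over all 16078 genes tested, 30.9% were higher and 31.4% lower. The median log2 difference was 1.12 over the members and -0.04 over all genes. Against the same classes, cone-like cells were higher for 27 members and lower for 3, where 21.8% and 23.7% of all genes were. All 5 genes of the photoreceptor cilium were higher in both rod-like and cone-like cells. In the libraries over the graft, the same fit called 34 members higher in rod-like and 27 in cone-like cells.

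**Figure D1:**
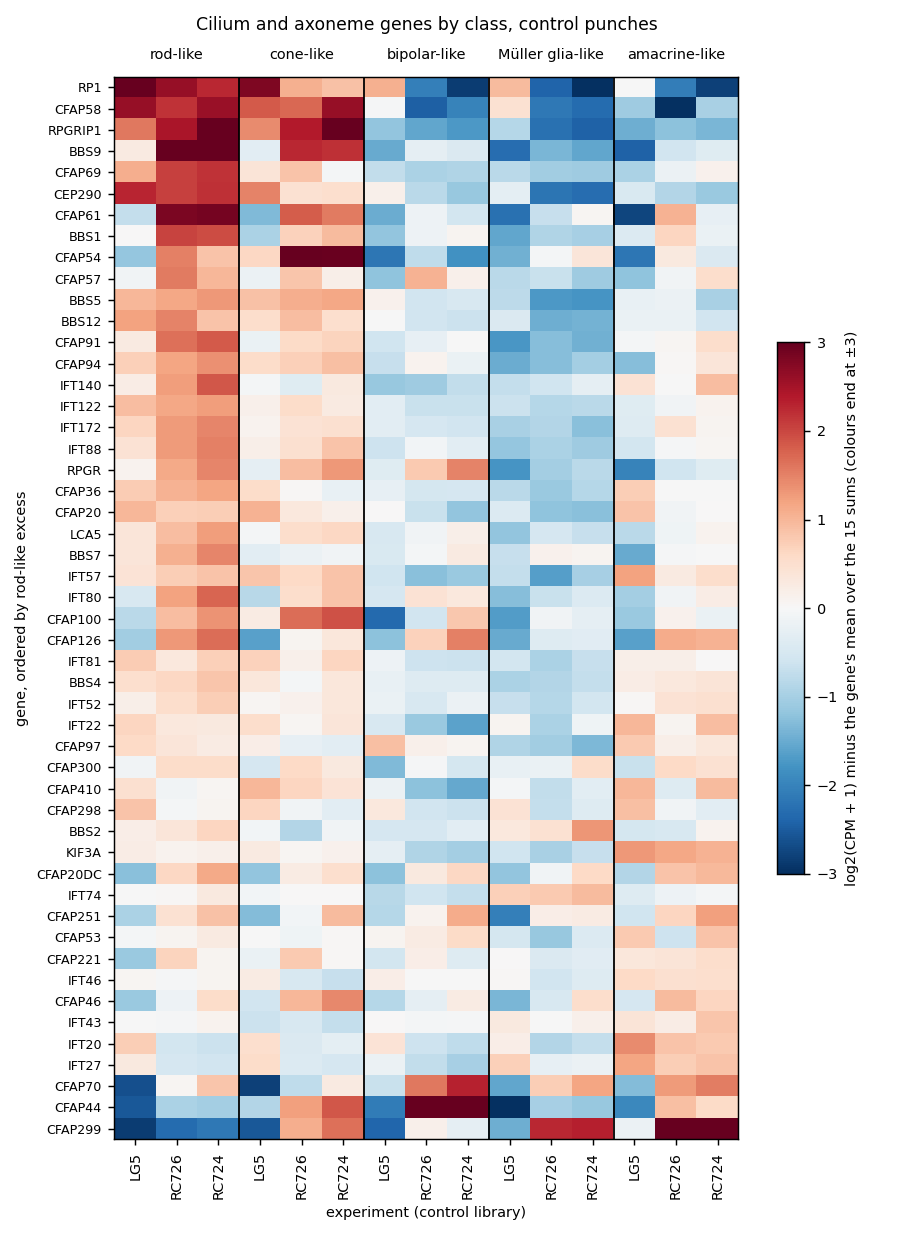
Level of each of the 50 tested members in the 15 control sums, as log2(CPM + 1) minus the mean of that gene over the 15 sums, with 5 classes of 3 libraries each and genes ordered by their log2 excess in rod-like cells. RP1, CFAP58 and RPGRIP1 at the top are red in rod-like and cone-like columns. At the bottom, in RC726 and RC724, CFAP70 and CFAP44 are reddest in bipolar-like and CFAP299 in amacrine-like columns. Not all other classes are red for these genes. Cone-like sums also held CFAP44 (31.6 CPM) and CFAP299 (46.8 CPM), as means of RC726 and RC724, against 4.54 and 2.87 CPM in rod-like sums.

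RP1, a microtubule-associated protein of the outer segment axoneme, had the largest excess in rods. Its control level was 3455, 1618 and 1256 CPM in rod-like cells and 1853, 548 and 484 CPM in cone-like cells (LG5, RC726, RC724). Bipolar-like cells had 552, 62.9 and 35.6 CPM, Müller glia-like cells 506, 48.8 and 29.2 CPM, and amacrine-like cells 261, 61.3 and 36.9 CPM. Within each library, rods were highest and cones second. The non-photoreceptor values were high in LG5 alone, where rod markers were also high in those classes (4663 CPM in Müller glia-like control cells, against 844 and 623 CPM in RC726 and RC724). Cone-like control sums carried 12289.9 CPM of rod markers in LG5, against 1505 and 974 CPM in RC726 and RC724. The log2 excess of RP1 was 4.34 ± 0.34 (SE, adjusted p = 2.18e-06) in rod-like and 3.04 ± 0.34 (adjusted p = 2.90e-05) in cone-like cells.

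RPGRIP1, which anchors RPGR in the connecting cilium, was alike in both photoreceptor classes. It measured 53.6, 99.5 and 157 CPM in rod-like and 48.4, 94.7 and 159 CPM in cone-like control cells. In the other 3 classes it lay between 2.41 and 9.14 CPM. The log2 excess was 4.11 ± 0.43 in rods and 4.12 ± 0.44 in cones, and cones minus rods was 0.01. CEP290, which links the axonemal microtubules to the membrane of the transition zone, measured 911, 764 and 849.7 CPM in rod-like and 522, 256 and 263 CPM in cone-like control cells, with a log2 excess of 3.12 ± 0.22 in rods and 1.74 ± 0.23 in cones. RPGR, a regulator of protein traffic through the transition zone, had a smaller excess, 1.35 ± 0.15 in rods and 1.13 ± 0.15 in cones. Rod-like control cells had 91.8, 188 and 236 CPM (LG5, RC726, RC724), against 66.0, 147 and 242 CPM in bipolar-like ones, so rods were higher in LG5 and RC726 and at the bipolar level in RC724. LCA5 (lebercilin, a ciliary partner of IFT proteins) exceeded the other classes by 1.18 ± 0.11 in rods and 0.71 ± 0.11 in cones.

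KIF3A, a subunit of the kinesin that drives outward transport, did not follow this pattern. Its level was highest in amacrine-like cells, at 196, 177 and 164 CPM. Rod-like (92.9, 84.6 and 87.3 CPM) and cone-like cells (95.7, 81.9 and 86.8 CPM) could not be ordered, and bipolar-like and Müller glia-like cells were lower, with means of 48.4 ± 14.6 and 46.9 ± 6.29 CPM (SD, n = 3). Its excess of 0.19 ± 0.12 in rods did not pass the test (adjusted p = 0.199). Kinesin-2 also moves cargo in axons.

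Among IFT genes, 7 of 11 IFT-B and 2 of 3 IFT-A subunits were higher in rods, and 5 of 11 and 1 of 3 in cones, where 1 of each complex was lower. IFT88, a core IFT-B subunit needed for cilium assembly, exceeded the other classes by 1.55 ± 0.13 in rods and 0.99 ± 0.14 in cones. The IFT-A subunits IFT140 and IFT122 both had an excess of 1.60 in rods (SE 0.20 and 0.15). IFT27, a small GTPase of IFT-B that takes part in BBSome export, was lower in rods (-0.47 ± 0.14) and had its highest mean in amacrine-like cells, 65.2 ± 10.8 CPM against 29.2 ± 10.9 CPM in rods. This call was lost in 6 of 13 alternatives, among them the fits without RC726 or RC724. In cones IFT43 (-0.90 ± 0.16, not called without RC724) and IFT46 (-0.46 ± 0.17, called in 5 of 13 alternatives) were the lower ones. IFT74 had its highest level in Müller glia-like cells in all 3 controls, at 146, 152 and 169 CPM, against 87.6, 90.7 and 108 CPM in rods. Its contrast with the mean of the other classes was 0.08 in rods and did not pass the test.

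Of the BBSome genes, 5 of 6 were higher in rods and 4 of 6 in cones. BBS9 measured 146, 1067 and 1155 CPM in rod-like and 97.1, 583 and 551 CPM in cone-like cells, with at most 100.5 CPM in the other classes (excess 3.40 ± 0.28 in rods, 2.56 ± 0.28 in cones). The LG5 value was the lowest in both classes. BBS1 and BBS5 followed, with an excess of 1.99 ± 0.23 and 1.84 ± 0.21 in rods. BBS12, a chaperonin-like protein that helps the BBSome assemble, exceeded the other classes by 1.83 ± 0.22 in rods and 1.33 ± 0.24 in cones.

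The CFAP genes divided. Of 37, 23 could be tested for levels, and 13 were higher and 3 lower in rods. CFAP58, known from the sperm tail axoneme, had its level mainly in photoreceptors: 47.6, 34.9 and 47.1 CPM in rod-like and 27.7, 25.6 and 47.6 CPM in cone-like cells, and at most 10.0 CPM elsewhere. Its excess was 4.32 ± 0.60 in rods and 4.06 ± 0.64 in cones. CFAP69 (3.15 ± 0.29), CFAP61 (2.58 ± 0.32, a radial spoke associated protein) and CFAP57 (1.89 ± 0.49, not called without RC726) were also among the 10 largest in rods, as was CFAP54 (1.90 ± 0.35). In cones CFAP54 was second (4.12 ± 0.33), and CFAP100 (1.99 ± 0.30), BBS5 (1.76 ± 0.21), CFAP69 (1.60 ± 0.37, not called without RC726) and CFAP61 (1.59 ± 0.35, not called without RC724) were among the 10 largest.

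Other CFAP genes had their highest level outside photoreceptors. CFAP299 measured 14.9, 159 and 209 CPM in amacrine-like and 5.58, 85.6 and 90.8 CPM in Müller glia-like cells, against 1.51, 2.65 and 3.09 CPM in rods (rod excess -4.03 ± 0.52). CFAP44, known from the sperm flagellum, stood at 318 and 454 CPM in the bipolar-like cells of RC726 and RC724 and at 1.54 CPM (5 UMIs) in those of LG5. The LG5 sum thus did not share the bipolar level. Its rod value was -2.45 ± 0.72, and the call was lost without RC726 or RC724. CFAP70 was lower than the other classes in rods (-1.42 ± 0.32) and cones (-2.04 ± 0.38), and both calls were lost without RC726.

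Cone-like cells differed from rod-like cells in 21 of the 50 members. Cones were lower for 17 members and higher for 4, where 14.2% and 13.3% of all genes were. The lower ones held all 3 IFT-A subunits, with IFT140 at -1.28 ± 0.27, and 4 of 6 BBSome subunits, with BBS7 at -1.15 ± 0.21 and BBS1 at -1.12 ± 0.29. They also held CFAP126 (-1.57 ± 0.38), CFAP69 (-1.55 ± 0.37), CEP290 (-1.38 ± 0.30), RP1 (-1.30 ± 0.44, adjusted p = 0.0473) and LCA5 (-0.46 ± 0.14). The higher ones were CFAP299 (3.40 ± 0.56), CFAP44 (2.91 ± 0.80), CFAP54 (2.22 ± 0.37) and CFAP46 (1.22 ± 0.33), and CFAP54 and CFAP46 are known from the central apparatus of motile axonemes. CFAP54 measured 5.96, 44.9 and 34.0 CPM in cone-like and 1.01, 11.8 and 7.18 CPM in rod-like cells. The count of 21 fell to 1 without RC726 and to 0 without RC724. With free RNA subtracted it was 11, and by a per-barcode marker gate 12. CFAP46 had 7 UMIs in the rod-like and 5 in the cone-like LG5 control sum, and CFAP126 had 4 and 0. CFAP46, CFAP126 and RP1 were not called in the libraries over the graft. CFAP46, CEP290 and CFAP69 were not called with free RNA subtracted.

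Over the graft, rod-like cells changed in 20 of the 52 members tested: 12 were lower and 8 higher (edgeR quasi-likelihood test with the experiment as a block, adjusted p under 0.05). Over all 15362 genes, 11.0% were lower and 11.7% higher. The median log2 change was -0.12 over the members and 0.00 over all genes, and 33 of the 52 estimates were below 0. The changes went in both directions within each complex. Without the experiment as a block, 0 members were called in rod-like cells, where 7 of 52 had an unadjusted p under 0.05. Both punches of an experiment come from the same retina, and their rod-like sums deviated together. Those of RC726 and RC724 also did so across experiments. Markers of other cells moved with the groups in rod-like sums. Astrocyte markers came to 31.0, 7.21 and 9.45 CPM over the graft, against 8.19, 2.44 and 2.79 CPM in control (LG5, RC726, RC724). Microglia or macrophage markers came to 44.6, 3.07 and 4.41 CPM over the graft, against 14.2, 1.90 and 3.39 CPM in control. Both lists were higher over the graft in every experiment, as were the amacrine and bipolar lists, among others. Amacrine markers came to 328, 937 and 1336 CPM over the graft, against 271, 856 and 1214 CPM in control. Cone and endothelial markers were lower over the graft in every experiment. Endothelial markers came to 79.2, 13.8 and 16.8 CPM over the graft, against 113, 19.7 and 23.8 CPM in control. The part of these markers in the rod values was not tested.

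**Figure D2:**
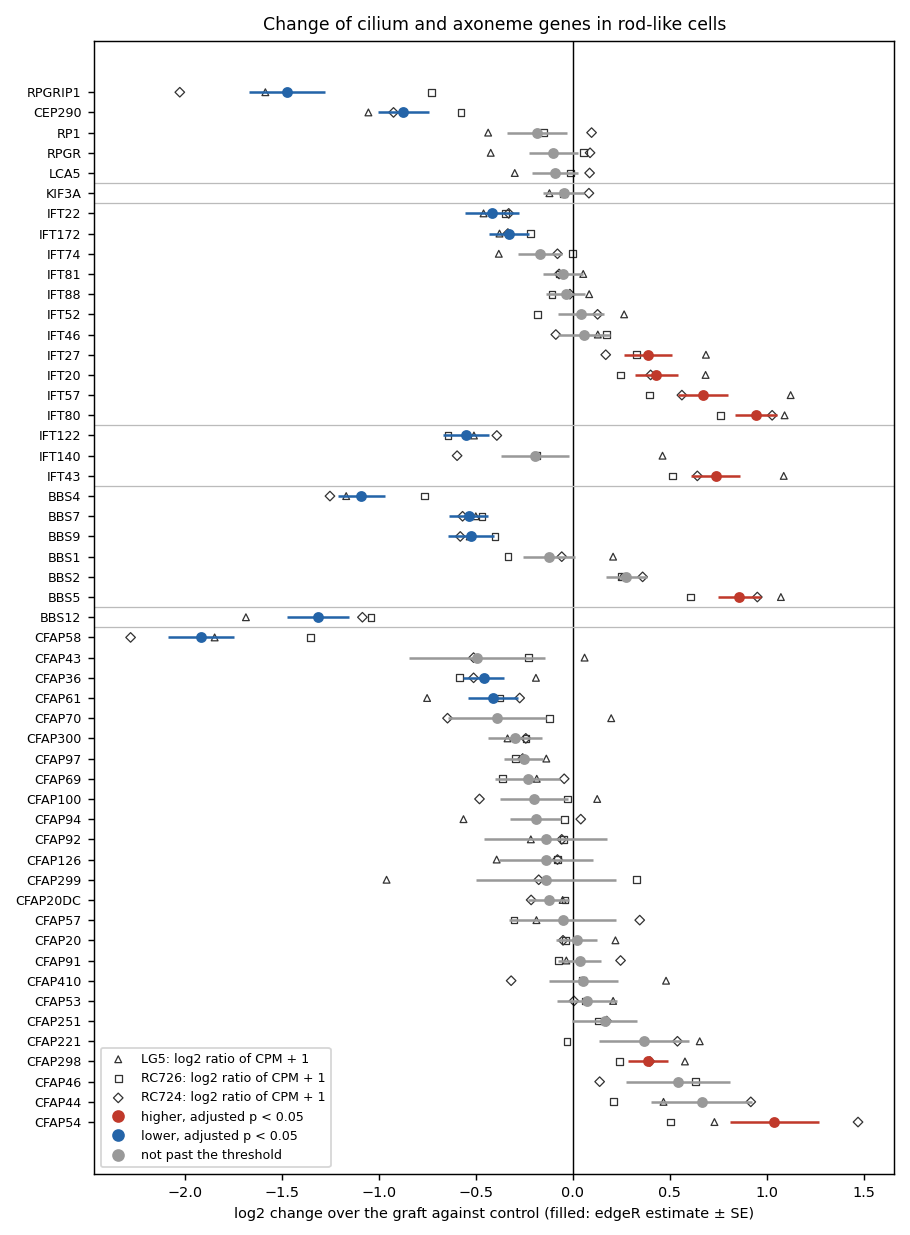
Log2 change of the 52 tested members in rod-like cells, over the graft against control. Filled points are edgeR estimates with SE, open symbols the log2 ratio of CPM + 1 in each experiment, and rules separate the roles. CFAP58 (-1.92), RPGRIP1 (-1.47) and BBS12 (-1.31) lie farthest left and CFAP54 (1.04) and IFT80 (0.94) farthest right.

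Of the photoreceptor cilium genes, RPGRIP1 and CEP290 fell. RPGRIP1 had 17.2, 59.7 and 37.7 CPM in rod-like cells over the graft, against 53.6, 99.5 and 157 CPM in control (LG5, RC726, RC724). Each experiment was lower over the graft, though the groups overlapped because LG5 was low in both. The log2 change was -1.47 ± 0.20 (SE, adjusted p = 0.000173). CEP290 had 438, 512 and 447 CPM over the graft, against 911, 764 and 849.7 CPM in control. The groups did not overlap (log2 change -0.87 ± 0.13, adjusted p = 0.000456).

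RP1, RPGR, LCA5 and the motor subunit KIF3A did not pass the test. RP1 had 2552, 1457 and 1343 CPM over the graft, against 3455, 1618 and 1256 CPM in control, lower in 2 experiments and higher in RC724 (-0.19 ± 0.16, adjusted p = 0.433). The mean of RPGR was 171 ± 93.7 CPM over the graft, against 172 ± 73.4 CPM in control (SD, n = 3 each), a log2 change of -0.10 ± 0.13. LCA5 had 234 ± 96.7 CPM over the graft, against 238 ± 71.5 CPM in control, and KIF3A had 86.6 ± 5.47 CPM over the graft, against 88.3 ± 4.23 CPM in control. Their log2 changes were -0.09 ± 0.12 and -0.05 ± 0.10.

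The IFT-B complex split. IFT80, IFT57, IFT20 and IFT27 rose, IFT22 and IFT172 fell, and the other 5 of 11 did not pass the test. IFT80, a subunit of the peripheral IFT-B part, had 83.3, 213 and 374 CPM over the graft, against 38.6, 125 and 183 CPM in control. It was higher over the graft in each experiment (0.94 ± 0.11, adjusted p = 6.27e-05), while levels of the experiments spread so widely that the groups overlapped. IFT57, which binds the kinesin, had 89.0, 66.8 and 81.7 CPM over the graft, against 40.3, 50.6 and 55.0 CPM in control, without overlap (0.67 ± 0.13, adjusted p = 0.00242). IFT20, which also works at the Golgi, rose by 0.43 ± 0.11, was highest in LG5 in both groups, and was not called without LG5 or without RC724. IFT27 rose by 0.39 ± 0.12 (adjusted p = 0.0402). The call held in 5 of 12 alternatives and was lost when any of the experiments, LG5 included, was left out.

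IFT22 had 17.0, 14.5 and 14.6 CPM over the graft, against 23.8, 18.7 and 18.6 CPM in control (-0.42 ± 0.14, adjusted p = 0.0471). IFT172, the largest IFT-B subunit, had 45.5, 79.5 and 83.7 CPM over the graft, against 59.4, 92.6 and 106 CPM in control (-0.33 ± 0.10, adjusted p = 0.037). These are the least stable calls of the complex, held by 2 and 4 of 12 alternatives, and neither was called when any of the experiments was left out. The core subunits IFT88, IFT81, IFT52, IFT46 and IFT74 had estimates between -0.17 and 0.06.

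Of the IFT-A complex, IFT43 rose and IFT122 fell. IFT43 had 61.9, 40.4 and 49.2 CPM over the graft, against 28.6, 28.0 and 31.2 CPM in control (0.74 ± 0.13, adjusted p = 0.00108). IFT122 had 23.2, 25.1 and 32.2 CPM over the graft, against 33.4, 39.8 and 42.6 CPM in control (-0.55 ± 0.12, adjusted p = 0.00531). In neither gene did the groups overlap, and IFT122 was not called without RC726. IFT140 was higher in LG5 and lower in RC726 and RC724 (-0.20 ± 0.18, adjusted p = 0.469).

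The BBSome also moved both ways. BBS4, BBS7 and BBS9 fell, BBS5 rose, and BBS1 (-0.12 ± 0.14) and BBS2 (0.27 ± 0.11, adjusted p = 0.0819) did not pass the test. BBS4 had 38.3, 55.4 and 45.4 CPM over the graft, against 87.4, 94.8 and 109.5 CPM in control, with no overlap (-1.09 ± 0.12, adjusted p = 4.88e-05). BBS5 had 198, 159 and 223 CPM over the graft, against 93.4, 104 and 115 CPM in control, also with no overlap (0.86 ± 0.11, adjusted p = 0.000154). All libraries over the graft thus lay below control for BBS4 and above control for BBS5.

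BBS7 (-0.54 ± 0.10) and BBS9 (-0.53 ± 0.12) fell less. BBS9 had 101, 807 and 772 CPM over the graft, against 146, 1067 and 1155 CPM in control, and was not called without RC724. BBS12, outside the complex, had 9.03, 18.2 and 11.0 CPM over the graft, against 31.3, 38.4 and 24.5 CPM in control (-1.31 ± 0.16, adjusted p = 9.67e-05). The groups did not overlap.

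**Figure D3:**
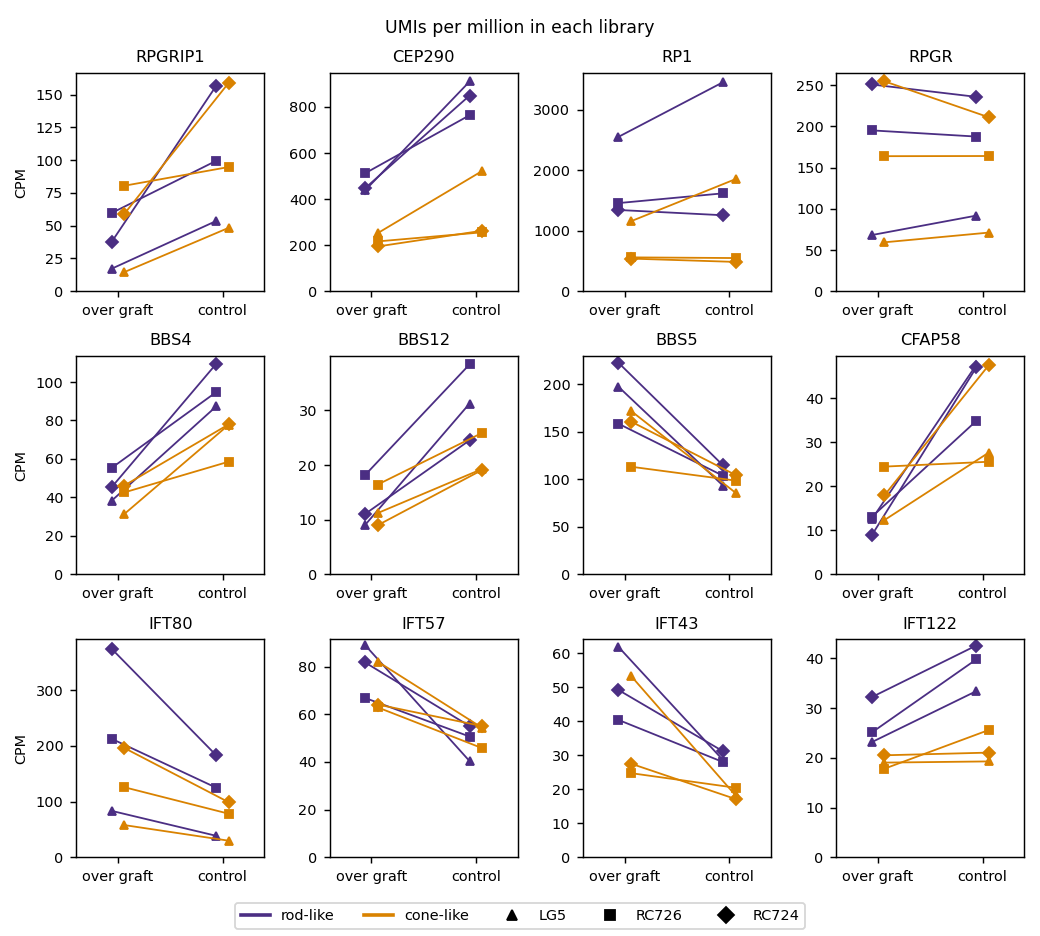
Level in CPM of 12 members in each library, over the graft on the left of each panel and control on the right, with lines joining the punches of an experiment (purple, rod-like; orange, cone-like). BBS4, BBS12, CEP290 and CFAP58 are lower over the graft in each experiment in both classes, and BBS5, IFT80, IFT57 and IFT43 are higher in each.

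Among the CFAP genes, 3 fell and 2 rose in rods, of 25 tested, shares near the 11.0% of all genes that were lower and the 11.7% that were higher. CFAP58 had 12.5, 13.1 and 8.90 CPM over the graft, against 47.6, 34.9 and 47.1 CPM in control, the largest change in rods of any member tested (-1.92 ± 0.17, adjusted p = 9.12e-06). The groups did not overlap. CFAP36, a binding partner of the small GTPase ARL3, had 90.0, 83.7 and 96.7 CPM over the graft, against 103, 126 and 138 CPM in control (-0.46 ± 0.11, adjusted p = 0.00772, not called without RC726 or without RC724). CFAP61 had 3.79, 70.2 and 78.5 CPM over the graft, against 7.06, 91.4 and 95.1 CPM in control (-0.41 ± 0.13, adjusted p = 0.0369). That call held in 4 of 12 alternatives and was lost when any of the experiments was left out.

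CFAP54 had 2.33, 17.1 and 21.7 CPM over the graft, against 1.01, 11.8 and 7.18 CPM in control (1.04 ± 0.23, adjusted p = 0.00564). Its LG5 sums held 16 UMIs over the graft and 8 in control, and the call was lost without RC724. CFAP298, known from dynein arm assembly in motile cilia, had 166, 68.4 and 84.3 CPM over the graft, against 111, 57.9 and 63.8 CPM in control (0.39 ± 0.10, adjusted p = 0.0175). It was not called without LG5 or without RC724.

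The counts depended on single experiments. Lower members numbered 9 without LG5, 7 without RC726 and 7 without RC724, and higher members 5, 7 and 4. RPGRIP1, CEP290, BBS4, BBS7, BBS12, BBS5, CFAP58, IFT80, IFT57 and IFT43 were called in the same direction in 11 of 12 alternatives, the exception being the fit without the block. With the rod cluster that also carried Müller glia markers (cluster 8) left out, 10 members were lower and 8 higher. The RC726 punches were counted with different Cell Ranger versions, and the part of that difference in the results was not tested.

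In cone-like cells 1 of 48 members passed the test. IFT80 had 57.9, 126 and 196 CPM over the graft, against 29.8, 78.2 and 98.8 CPM in control (0.84 ± 0.14, adjusted p = 0.027), higher in each experiment. The call was lost without RC724. No member was lower by the test, although 14 of 48 had an unadjusted p under 0.05. Over all 12123 genes, 2.12% were higher and 0.404% lower, so fewer genes of any kind were called than in rods.

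The values of the rod-changed genes in cones were as follows. BBS4 had 31.4, 42.6 and 46.2 CPM over the graft, against 77.8, 58.6 and 78.0 CPM in control (-0.86 ± 0.19, adjusted p = 0.0613). BBS12 had 11.2, 16.4 and 8.97 CPM over the graft, against 19.3, 25.9 and 19.1 CPM in control (-0.86 ± 0.20, adjusted p = 0.0733). In neither did the groups overlap. RPGRIP1 had 14.6, 80.4 and 59.0 CPM over the graft, against 48.4, 94.7 and 159 CPM in control (-1.09 ± 0.27, adjusted p = 0.0856), and passed in 4 of 12 alternatives.

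CEP290 (-0.61 ± 0.19, adjusted p = 0.14), RP1 (-0.20 ± 0.20), RPGR (-0.01 ± 0.15), LCA5 (-0.25 ± 0.15) and KIF3A (-0.20 ± 0.16) did not pass in cones. The Müller glia markers in cone-like sums moved with the groups in RC726 and RC724: they came to 1060.4, 202 and 482 CPM over the graft, against 1098, 73.4 and 48.6 CPM in control (LG5, RC726, RC724). Astrocyte markers there came to 72.4, 16.4 and 29.2 CPM over the graft, against 5.96, 3.98 and 3.24 CPM in control, higher in every experiment. Rod markers came to 4976, 1229 and 626 CPM over the graft, against 12289.9, 1505 and 974 CPM in control, lower in every experiment. IFT80 was still called with the clusters that carried glial markers left out, with free RNA subtracted and under the marker gate, where 2, 0 and 0 members were lower. The difference between the rod and the cone change was called for 0 of 53 members (interaction term in edgeR, 3 at an unadjusted p under 0.05), where 0.189% of all genes were called. The data thus do not separate rods from cones in any member, and the missed threshold in cones does not show that they did not change.

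**Figure D4:**
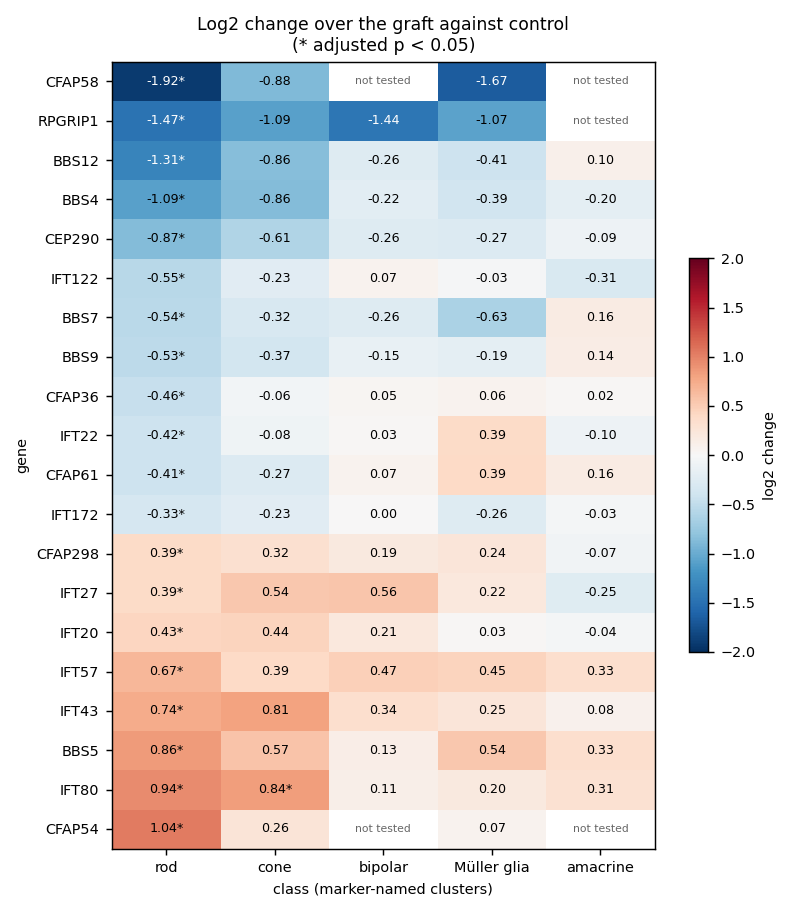
Log2 change over the graft against control in 5 classes for the 20 members that passed the test in rod-like cells, ordered by their rod value, with an asterisk at an adjusted p under 0.05. Outside rods, 1 cell bears an asterisk, IFT80 in cones (0.84).

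In the other classes no member passed the test. The counts were 0 of 46 in bipolar-like cells (7 at an unadjusted p under 0.05, with 0.228% of all genes called), 0 of 49 in Müller glia-like cells (9, with 0.401%) and 0 of 40 in amacrine-like cells (1, with 0.234%). The DESeq2 fits also called 0 in each. BBS4 in bipolar-like cells had 41.7, 41.3 and 46.3 CPM over the graft, against 52.2, 46.8 and 46.9 CPM in control (-0.22 ± 0.13). IFT80 there had 46.6, 70.5 and 79.2 CPM over the graft, against 37.6, 73.0 and 67.7 CPM in control (0.11 ± 0.11). Some estimates were large without passing the test: CFAP58 had -1.67 in Müller glia-like cells and RPGRIP1 -1.44 in bipolar-like cells. Rod markers in Müller glia-like sums came to 1913, 963 and 519 CPM over the graft, against 4663, 844 and 623 CPM in control (LG5, RC726, RC724), lower in LG5 and RC724 and higher in RC726. In bipolar-like sums they came to 4580.2, 852 and 494 CPM over the graft, against 5334, 947 and 744 CPM in control, lower in all 3 experiments. With free RNA subtracted, neither gene had enough counts in that class to be tested.

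Direct tests of the difference between classes called 2 members. The rod change exceeded the bipolar change by 0.81 ± 0.15 for IFT80 (adjusted p = 0.0296) and the difference was -0.90 ± 0.19 for BBS4 (adjusted p = 0.0439), among 52 members, where 1.22% of all genes were called. Both calls were lost when any of the experiments was left out and when free RNA was subtracted. Free RNA in bipolar-like sums, estimated from rod markers, stood in LG5 at 90.0% over the graft, the highest share the estimate allows, and at 47.6% in control, and lay between 9.51% and 15.1% in RC726 and RC724. The RC724 bipolar barcodes lay in different clusters, with 427 over the graft against 0 in control in cluster 17, and 35 against 700 in cluster 25. Against Müller glia-like cells, 0 of 53 members differed from rods (11 at an unadjusted p under 0.05, with 1.61% of all genes called), and the smallest adjusted p was that of IFT80 (0.70 ± 0.16, adjusted p = 0.0518).

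The other lists of cilium genes are read against the same background in rod-like cells, 11.0% of all genes lower and 11.7% higher. Counts near those shares are no result about a list. Of 24 transition zone and connecting cilium genes, 7 fell and 4 rose (median log2 change -0.19). TCTN1 (-0.76 ± 0.12) and CC2D2A (-0.62 ± 0.12), parts of the transition zone barrier, and POC1B (-0.70 ± 0.11), a centriolar and connecting cilium protein, fell, and B9D2 (0.74 ± 0.12) rose. TCTN1 had 31.8, 67.8 and 70.7 CPM over the graft, against 57.2, 93.2 and 135 CPM in control. It was lower over the graft in each experiment, with overlap between groups.

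Of 16 tested genes of the outer segment axoneme, its base and the rootlet, 6 fell and 4 rose (median -0.19). ADGRV1, a large receptor of the periciliary membrane, rose by 0.83 ± 0.13, with 241.5, 722 and 1168 CPM over the graft, against 154, 407 and 555 CPM in control. MAK, a kinase that limits ciliary length in mouse photoreceptors, rose by 0.68 ± 0.13. PCARE, an actin regulator at the base of the outer segment (-0.60 ± 0.11), and the centrosomal linker CEP250 (-0.71 ± 0.14) fell. Groups did not overlap for PCARE.

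Of 9 genes that carry lipidated proteins to the cilium, 3 fell and 1 rose: ARL3 (-0.63 ± 0.12), PDE6D (-0.46 ± 0.12) and UNC119 (-0.47 ± 0.15) were lower and ARL2BP (0.36 ± 0.10), a partner of ARL2 and ARL3, was higher. Of the other 10 IFT subunits tested, only TTC21B, an IFT-A subunit, passed the test (0.67 ± 0.11). Of 9 BBSome and ARL6 partners, RAB3IP (-0.59 ± 0.11), which activates RAB8, and SDCCAG8 (-0.36 ± 0.12) fell and WDPCP (0.43 ± 0.13) rose. Of 9 motor subunits, DYNLT2B rose (0.59 ± 0.10) and DYNC2I2 (-0.69 ± 0.19) and KIF3B (-0.38 ± 0.11), the partner of KIF3A, fell.

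Of 18 centriole and basal body genes, 3 rose and 1 fell, near the shares over all genes, among them CEP83 (0.78 ± 0.11) and TTBK2 (0.51 ± 0.10), which act at the distal appendages when a cilium begins to form, and FBF1 (-1.01 ± 0.16), of the same appendages. The ranges did not overlap for CEP83 or FBF1. TOPORS also rose (0.59 ± 0.13).

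Of 15 tested genes of motile cilia, 2 were higher and 2 lower in rods, also near the shares over all genes. DNAH11, a dynein heavy chain, had 59.4, 93.2 and 137 CPM over the graft, against 19.7, 38.2 and 34.3 CPM in control, with no overlap (1.60 ± 0.14, adjusted p = 6.69e-06). DRC3 fell (-0.81 ± 0.18). FOXJ1, the master regulator of motile cilia, stood at 4.81, 0.795 and 2.69 CPM over the graft, against 1.01, 0.543 and 0.499 CPM in control (1.78 ± 0.42), and DNAAF1 at no more than 2.04 CPM in any rod sum. Among 7 ciliary transcription factors, RFX4 fell (-1.03 ± 0.12), with 9.03, 29.4 and 18.6 CPM over the graft, against 16.9, 60.9 and 38.4 CPM in control, and FOXJ1 is listed there too.

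**Figure D5:**
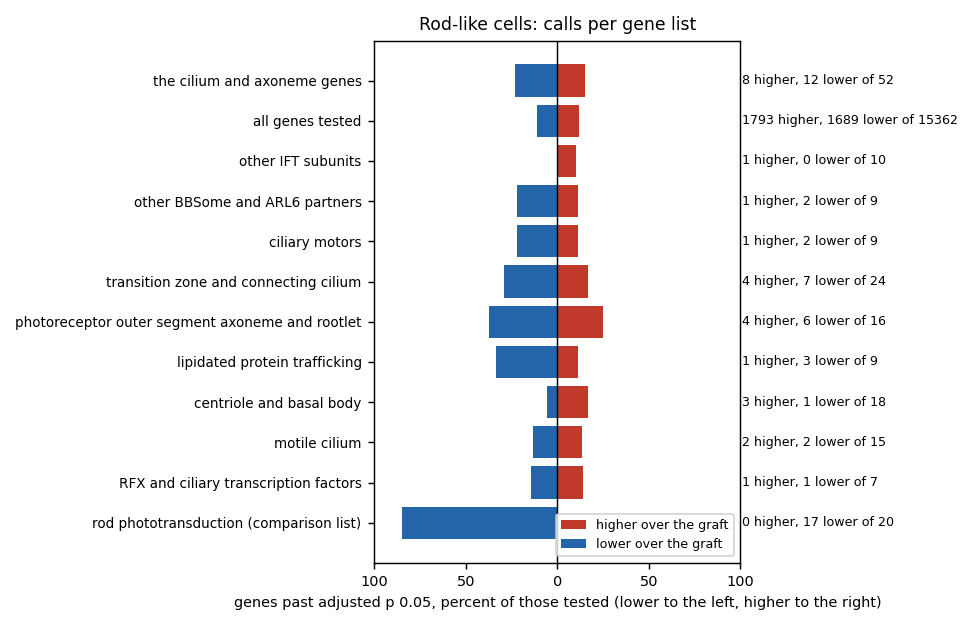
Share of tested genes that were higher (right) or lower (left) over the graft in rod-like cells at an adjusted p under 0.05, for the members, for all genes tested and for 10 gene lists. The members gave 8 higher and 12 lower of 52, and rod phototransduction 0 higher and 17 lower of 20.

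Rod phototransduction genes, whose proteins work in the outer segment beyond the cilium, are given for comparison. They fell in 17 of 20 cases and rose in 0, with a median log2 change of -0.79. Their log2 changes were -1.34 ± 0.16 for GUCA1A, -1.28 ± 0.17 for SLC24A1, -0.997 ± 0.12 for GUCY2F and -0.97 ± 0.13 for PDE6B. The cilium members thus had both risers and fallers where phototransduction had fallers alone among its called genes. In cone-like cells, ARL3 was the single called gene among the 9 other cilium lists.

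The remaining 12 members could not be tested in rods and had between 9 and 111 UMIs over all 30 sums. Of these, 10 entered no fit: CFAP206, CFAP97D2, CFAP73, CFAP161, CFAP65, CFAP45, CFAP52, CFAP74, CFAP97D1 and CFAP157. Differences in them were not detectable at this depth. All 64 symbols matched the RefSeq table of dog genes, and 16 overlap another protein-coding gene by position there, RPGRIP1, CEP290, BBS7, BBS9 and CFAP61 among them. The strand setting of the counting is unknown here, so reads of such a neighbour cannot be told apart from theirs.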

How the data were processed

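The deposited files hold raw UMI counts per gene and barcode from 6 10x 3' libraries, made by the authors with Cell Ranger 6.0.2, 7.0.0 or 7.1.0 per the file headers. Not given in the sources used here: genome build, annotation, intron setting and how human reads were kept apart. Kept barcodes had 300 or more genes and no more than 20% mitochondrial UMIs. The top 6% by doublet score were left out of the sums and class sizes. The reason was that the automatic threshold of the caller in scanpy 1.11.5 marked at most 0.0351%. These barcodes still entered the clustering, so the barcode counts given for single clusters include them. Clustering used 2073 genes, leaving out the members and 46 genes that moved between punches, with 30 principal components, 20 neighbours and Leiden resolution 1.5. Of 65 clusters, 46 were named from 15 marker lists. A per-barcode marker gate was an alternative.

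Counts were summed per library and class and tested with edgeR 4.0.16 (quasi-likelihood, low-count filter, TMM, Benjamini-Hochberg adjustment over all genes tested, threshold 0.05), with the experiment or library as a block. DESeq2 1.42.0 was an alternative. The fits were also run on simulated data that held no differences between experiments, unlike the real sums. Those runs therefore did not test the block. Numbers pair the punches because both come from the same retina. Their rod-like sums deviated together, with correlations between 0.900 and 0.956 over 15362 genes. These deviations were taken from the mean of each group, so within a group they cancel for every gene. Punches of RC726 and RC724 also correlated across experiments (0.788 and 0.785), and LG5 correlated negatively with both (-0.911 to -0.887). Where a single experiment stands apart, such negative values follow from the centring. The correlations thus carry the split of LG5 from RC726 and RC724 as well as the pairing. Free RNA limits low levels, most in LG5. Named genes were the members called for change, the 10 largest and 5 smallest called level differences, the genes of the photoreceptor cilium with KIF3A, and in other lists up to 4 called genes with the smallest p. IFT88, IFT140, IFT122, BBS5, BBS12 and IFT74 in the rod levels, and BBS7 and BBS1 in cones against rods, were added after their values were seen. The members and lists were chosen with earlier results of these data known.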

Additional observations from a re-analysis of the deposited data

Results flagged for a closer look

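IFT80 and BBS4 were the members whose change was called different in rod-like and bipolar-like cells by a direct test (interaction term in edgeR). For IFT80 the rod change minus the bipolar change was 0.81 on the log2 scale (adjusted p = 0.0296), with log2 changes of 0.94 in rods and 0.11 in bipolar cells. For BBS4 the difference was -0.90 (adjusted p = 0.0439), with -1.09 in rods and -0.22 in bipolar cells. Free RNA in the LG5 bipolar-like sums stood at 90.0% over the graft, the highest share the estimate allows, and 47.6% in control. The adjusted p of IFT80 passed in 7 of 12 alternatives and that of BBS4 in 4 of 12. Neither passed when any of the experiments was left out or when free RNA was subtracted. Over all genes, 1.22% were called in this test.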

How the results depend on the processing

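Without the replicate block, 0 members were lower and 0 higher in rods, 0 were higher in cones, 15 had a cone excess, 0 differed between cones and rods, and 0 changed differently in rods and bipolar cells. The pairing comes from the shared retina. Leaving out each experiment in turn gave 7 to 9 lower and 4 to 7 higher members in rods, 0 to 3 lower and 0 to 2 higher in cones, 0 to 1 higher in bipolar cells and 0 to 2 higher in Müller glia. It gave 17 to 30 members with a cone excess, 0 to 23 differing between cones and rods, 0 to 2 for rods against Müller glia and 0 to 0 for rods against bipolar cells. The cause was not tested beyond the smaller number of samples. Lower members in cones numbered 2 with DESeq2, 2 without clusters carrying glial markers (an alternative chosen after seeing the data) and 2 with doublet-scored barcodes kept. Without the low-count filter, 1 member was lower and 1 higher in bipolar cells, 3 lower and 1 higher in Müller glia, and 5, 6 and 1 changed differently in rods than in Müller glia, bipolar cells and cones. Cones and rods differed in 11 members with free RNA subtracted and 12 under the marker gate. Rods differed from Müller glia in 1 member with DESeq2, 1 with RLE normalization, 1 without the glial clusters and 1 with free RNA subtracted, and from bipolar cells in 1 with doublets kept, 0 with free RNA subtracted, 1 under the gate and 1 with stricter barcodes.

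Leaving out each experiment in turn, the log2 change ran from -0.1351 to 0.0073 for KIF3A, -0.2042 to 0.0278 for LCA5 and -0.2241 to 0.0628 for RPGR in rods, and from -0.3823 to 0.0596 for RP1 and -0.177 to 0.1049 for RPGR in cones, the sign turning without LG5 in each. The log2 change of RPGR, cone-like, also turned to 0.0592 without the glial clusters, 0.022 with doublets kept, 0.1374 with free RNA subtracted, 0.0779 without the block and 0.0315 under the gate. None of these values was called. Of 864 values over 69 named results, 710 kept direction and side of the threshold, 140 lost the call, 4 gained one (RPGRIP1 in cones) and 10 turned.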

Other observations

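Among the 64 members, 33 had their highest mean control level in rod-like, 16 in amacrine-like, 7 in cone-like, 5 in Müller glia-like and 3 in bipolar-like cells, untested members included. The shares over all genes were not computed, so these counts are no result about the members. The leading class also varied between libraries. IFT57 had its highest mean in cone-like cells, which led in 0 of the control libraries. Several levels in rods differed between experiments more than between punches. The mean of the RC726 and RC724 controls over the LG5 control was 7.61 for BBS9 and 13.2 for CFAP61, against 0.390 for IFT20 and 0.416 for RP1. Experiment and counting software cannot be told apart in these ratios.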
